A study of Mus musculus with 28 samples.

Results

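Exposure to a new environment was compared with standard caging in the hippocampus of wild-type mice that had received vehicle only. The members are 6 of the 28 arrays of the series, taken by their titles: novelty vehicle replicates 1, 2 and 3, and standard-cage vehicle replicates 3, 4 and 5. Control replicates 1 and 2 are labelled naive and were left out. All genes with 1 symbol on the array were described, 19938 in all. The groups share strain (C57/DBA F1 hybrid), sex (female), age (3 months) and an intraperitoneal injection of DMSO and saline. They differ in that the novelty mice spent 1 h singly in a white plexiglas box with plastic tubing and small toys. Being alone and being in a new place therefore cannot be told apart in these groups. Each array held RNA pooled from the hippocampi of 3 to 4 mice, so an array is a pool and not an animal, and the spread between mice was averaged within it. The labels give the timing of injection for the drug groups (novelty began 15 min after injection and tissue was taken 75 min after it) and not separately for vehicle. The other arrays of the series hold cbp+/- mice, in which 1 copy of the gene for the coactivator CBP (Crebbp) is disrupted, and mice given the histone deacetylase inhibitor trichostatin A (TSA, 2.4 mg/kg).

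Neurons answer a burst of synaptic input by switching on immediate early genes, whose promoters are already poised and need no new protein to start. Calcium and cyclic AMP signals act through kinases on factors such as CREB and SRF, which bind the cyclic AMP response element (CRE) and the serum response element (whose core is the CArG box). The first products include transcription factors (the Fos, Egr and Nr4a families and Npas4), synaptic proteins such as Arc, and phosphatases that shut the kinases off again. In the hippocampus this response follows exploration of a new place and is widely used as a map of recently active neurons.

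Values are log2 expression values, so a difference of 1 is a 2-fold difference. Across the 6 arrays the medians lay between 5.48 and 5.58, and arrays correlated with each other at 0.976 to 0.991. Arrays fell into 3 sets, with cage replicates 3, 4 and 5 in the sets of novelty replicates 1, 2 and 3. Each gene's change is the mean of the 3 differences between arrays of a set (pairs 1, 2 and 3), tested with limma. Errors are limma's standard errors of that mean. They rest on a variance estimated over all arrays of the fit, other groups included, with empirical Bayes. They therefore do not measure how well the 3 pairs of a gene agree. For Dusp5 the pairs had an SD of 0.46 and the error was 0.13. For Hspa5 the SD was 0.052 and the error 0.10. The average level of dentate granule neuron markers was 7.34 to 7.63 in the 6 arrays and that of CA1 pyramidal neuron markers was 8.04 to 8.82, both above the array medians. In the other groups 3 arrays had raised choroid plexus markers (mean deviation over 0.9) and none of these is among the 6 compared, but they enter the estimate of the spread. In pooled tissue, more RNA per cell and more cells of a kind cannot be told apart.

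In wild-type mice given vehicle, 22 genes were higher after 1 h of novelty and 0 were lower, at a limma p under 0.05 after Benjamini-Hochberg adjustment over all 19938 genes. The 22 are 0.11% of the genes tested. They were led by activity-induced transcription factors (Npas4, Fos, Egr2, Fosb, Nr4a1), the synaptic gene Arc and the phosphatase gene Dusp1, which rose 2.12-fold to 3.43-fold. Smaller increases, down to 1.35-fold, were found for genes of kinase feedback, endoplasmic reticulum folding, thyroid hormone activation and metabolism. All 22 were higher in each of the 3 pairs, which held for 2096 of all genes (10.5%), and in 18 the 3 novelty arrays lay above the 3 cage arrays, which held for 361 (1.81%). The exceptions, with overlapping arrays, were Nr4a2, Dusp1, Dnajb5 and Egr3. The 22 were chosen by a test of these same differences, so such agreement is largely fixed by the choice and is no further support. The median difference of the 22 was 0.74 in pair 1, 0.75 in pair 2 and 0.77 in pair 3.

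**Figure D1:**
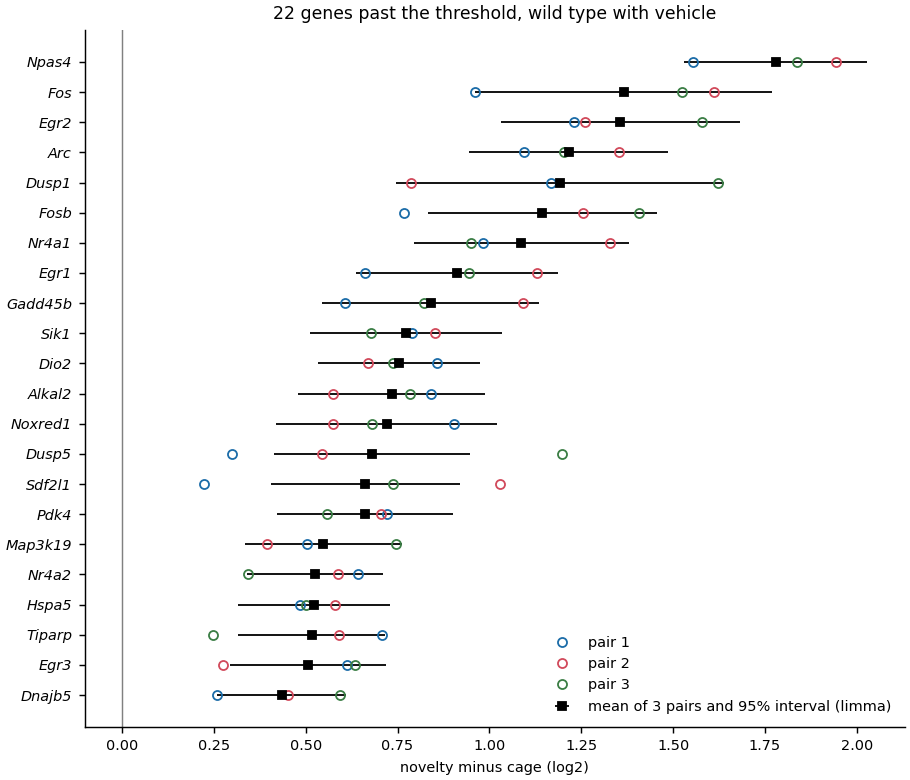
Change of the 22 genes past the threshold in wild-type mice given vehicle (x axis, novelty minus cage in log2 units). Squares and bars are the mean of 3 pairs and its 95% interval from limma, and open circles are the single pairs. Every pair lies above 0, from 0.22 (Sdf2l1, pair 1) to 1.94 (Npas4, pair 2).

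Most genes had small differences. The median change over all genes was -0.0096 with an SD of 0.13, and the 1 and 99 percentiles were -0.30 and 0.35. A change over 1 was measured in 8 genes, of which 7 passed the test. The other was Ttr, a choroid plexus gene described with the cell type markers. No gene had a change under -1. Among the 19916 genes that did not pass, the paired differences of pairs 1 and 2 correlated at -0.17, those of pairs 1 and 3 at 0.28 and those of pairs 2 and 3 at -0.09, across genes, which share arrays and are not independent.

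Stretches of 6 promoters are shown because they carry the sequence motifs of the pathways named above in genes that rose. They are from RefSeq on mouse assembly GRCm38.p6, read 5′ to 3′ on the gene's strand, with the motif in capitals. The motifs are the full CRE (TGACGTCA) in Dio2 and Dusp1, its shorter form TGACG in Fos, the CArG box in Egr2 and Dusp5, and the endoplasmic reticulum stress element (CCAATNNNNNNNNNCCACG) in Hspa5.
Fos, chr12:85473750-85473849, plus strand: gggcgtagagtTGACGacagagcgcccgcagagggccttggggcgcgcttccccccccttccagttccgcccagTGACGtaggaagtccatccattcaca
Dio2, chr12:90739079-90739158, minus strand: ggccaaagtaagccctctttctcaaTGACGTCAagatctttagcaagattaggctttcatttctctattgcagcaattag
Dusp1, chr17:26508563-26508642, minus strand: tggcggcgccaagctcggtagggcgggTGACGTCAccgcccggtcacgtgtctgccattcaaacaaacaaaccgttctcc
Dusp5, chr19:53529035-53529114, plus strand: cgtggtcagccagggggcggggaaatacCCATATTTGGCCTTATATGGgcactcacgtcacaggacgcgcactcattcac
Egr2, chr10:67537784-67537813, plus strand: cctgttcctcagtCCATATATGGgcagcga
Hspa5, chr2:34772000-34772069, plus strand: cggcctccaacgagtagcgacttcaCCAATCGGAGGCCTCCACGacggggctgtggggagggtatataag

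These stretches lie upstream of an annotated transcription start. The motifs begin 129 and 66 bases before the start in Fos, 95 in Dio2, 143 in Dusp1, 82 and 72 in Dusp5, 72 in Egr2 (at 1 of its 5 listed starts) and 65 in Hspa5. A promoter (250 bases before to 50 after the start) was found in the RefSeq table for 17 of the 22 genes, all except Arc, Egr1, Sik1, Map3k19 and Egr3. Both strands were searched, and a gene with several listed starts counted once if any of its promoters held the motif. The full CRE was in 2 of the 17 genes and in 2.03% of all 27025 genes with a promoter. The shorter TGACG, which the full CRE contains, was in 12 of the 17 (Npas4, Egr2, Nr4a1, Fosb, Dio2, Fos, Alkal2, Nr4a2, Dusp1, Dusp5, Hspa5 and Dnajb5) and in 23% of all genes. A CArG box was in 2 of the 17 and in 1.81% of all genes, and the endoplasmic reticulum stress element was in 1 of the 17 and in 0.137% of all genes. The Egr binding site GCGGGGGCG was in Nr4a1 and Fosb and in 3.31% of all genes. The Nr4a binding site AAAGGTCA was in 0 of the 17 and in 1.7% of all genes. By single promoters, the shares of all 32851 were 1.79% for the full CRE, 20.8% for TGACG, 1.63% for the CArG box, 0.119% for the stress element, 2.91% for the Egr site and 1.51% for the Nr4a site. A match describes letters in this window and does not show binding.

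Npas4, a neuron-specific bHLH-PAS transcription factor that responds to calcium entry, had the largest change. Its level was 6.37, 5.80 and 5.73 in cage replicates 3, 4 and 5 and 7.92, 7.75 and 7.57 in novelty replicates 1, 2 and 3. The lowest novelty array stood above the highest cage array, which was cage replicate 3. The change was 1.78 ± 0.12, or 3.43-fold (95% interval 1.53 to 2.03, limma adjusted p = 6.4e-09). Npas4 was listed with 18 activity-induced regulators outside the Fos, Egr and Nr4a families, itself included. It alone passed (0.11% of all genes did). The list's median change was 0.20 against -0.0096 for all genes. Of the 18 changes 16 were positive (46.8% of all genes were), and 8 had an unadjusted p under 0.05, against 7.2% of all genes. Among those that did not pass, Bhlhe40, a transcriptional repressor also placed in the clock, had a change of 0.58 ± 0.14 (limma adjusted p = 0.186). Klf2, a Krüppel-like factor, had a change of 0.47 ± 0.15 (adjusted p = 0.538), and its novelty arrays lay above its cage arrays.

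Of 7 subunits of AP-1, the Fos and Jun dimer, 2 passed (0.11% of all genes did) and 6 had positive changes (46.8% of all genes did). Fos read 5.72, 5.30 and 5.89 in cage replicates 3, 4 and 5 and 6.68, 6.92 and 7.41 in novelty replicates 1, 2 and 3. Its change was 1.37 ± 0.20, or 2.58-fold (limma adjusted p = 0.00112), with the smallest difference in pair 1 (0.96) and differences of 1.61 and 1.52 in the others. Fosb, whose truncated product accumulates with repeated activity, read 6.998, 6.40 and 6.21 in the cage arrays and 7.77, 7.65 and 7.62 in the novelty arrays. The novelty arrays of Fosb lay close together (SD 0.077, n = 3) and the cage arrays spread more (SD 0.41, n = 3), with cage replicate 3 the highest. Its change was 1.14 ± 0.15, or 2.21-fold (adjusted p = 0.000409). Junb, the Jun partner usually induced with Fos, did not pass, with a change of 0.55 ± 0.12 (adjusted p = 0.0846) and differences of 0.21, 0.57 and 0.87 in the 3 pairs. Fosl2 had a change of 0.40 ± 0.11 (adjusted p = 0.337) and Jun of 0.23 ± 0.11 (adjusted p = 0.679). Fosl1 was the member with a negative value, -0.17 ± 0.11.

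The Egr zinc-finger factors and their Nab corepressors had the highest list median of the 28 lists, 0.60. Of their 6 members 3 passed (0.11% of all genes did). Egr2 read 6.24, 5.65 and 5.40 in the cage arrays and 7.47, 6.91 and 6.98 in the novelty arrays. Its change was 1.36 ± 0.16, or 2.56-fold (limma adjusted p = 7.41e-05), and every novelty array was above every cage array. Egr1, which acts in long-term plasticity, read 8.35, 7.39 and 7.50 against 9.01, 8.52 and 8.44. Cage replicate 3 was the highest of its cage arrays by a wide margin, and pair 1 gave the smallest of its differences, 0.66. Its change was 0.91 ± 0.13, or 1.88-fold (adjusted p = 0.00139). Egr3, needed for muscle spindles and for late plasticity, read 8.02, 7.76 and 7.29 against 8.63, 8.03 and 7.92. The novelty array of pair 3 lay below the cage array of pair 1, so its groups overlap, and its change was 0.51 ± 0.10 (adjusted p = 0.0497), close to the threshold. Egr4 did not pass, with a change of 0.69 ± 0.16 (adjusted p = 0.181) and no overlap between groups. The corepressors had changes of 0.26 ± 0.12 (Nab2) and 0.04 ± 0.10 (Nab1), which did not pass.

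All 3 Nr4a orphan nuclear receptors had positive differences in the 3 pairs (10.5% of all genes did), and 2 passed (0.11% of all genes did). Nr4a1 read 9.38, 8.72 and 8.69 in the cage arrays and 10.37, 10.04 and 9.64 in the novelty arrays. Its change was 1.09 ± 0.14, or 2.12-fold (limma adjusted p = 0.000409), with no overlap. Nr4a2, which is required for midbrain dopamine neurons, read 8.59, 8.22 and 8.09 against 9.23, 8.81 and 8.43. Novelty replicate 3 lay below cage replicate 3 although each pair was higher after novelty, and the change was 0.52 ± 0.09 (adjusted p = 0.00909). Nr4a3 had differences of 0.38, 0.56 and 0.33 and did not pass, with a change of 0.42 ± 0.09 (adjusted p = 0.0922). Its novelty arrays nevertheless did not overlap its cage arrays.

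**Figure D2:**
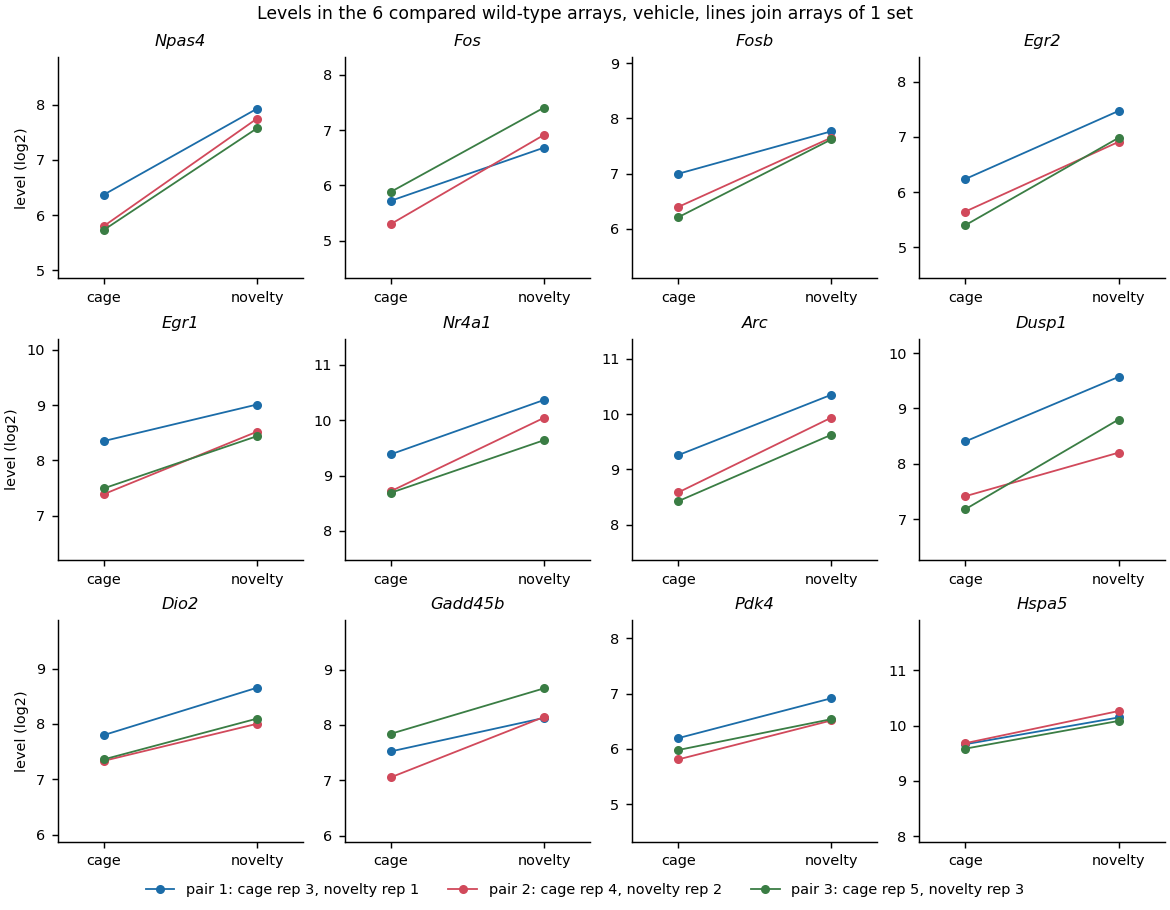
Log2 levels of 12 of the genes in the cage and novelty arrays of wild-type mice given vehicle (all y axes span the same number of log2 units, and each is centred on its own gene). Lines join the arrays of 1 set, and blue is pair 1. Every line slopes upward, and in Npas4, Egr1, Egr2, Fosb, Arc and Dusp1 the cage array of pair 1 starts above the others.

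Among synaptic and enzymatic effectors, 2 of 20 passed (0.11% of all genes did). Arc, whose product regulates AMPA receptor endocytosis and assembles into capsids, read 9.26, 8.58 and 8.43 in cage replicates 3, 4 and 5 and 10.35, 9.94 and 9.63 in novelty replicates 1, 2 and 3. Its change was 1.22 ± 0.13, or 2.32-fold (95% interval 0.95 to 1.49, limma adjusted p = 3.07e-05). The pairs differed by 1.09, 1.35 and 1.20, a spread smaller than that among the cage arrays. Dnajb5, a heat shock co-chaperone placed in this list, read 8.42, 7.94 and 7.71 against 8.67, 8.40 and 8.30. Its change was 0.43 ± 0.09, the smallest of the 22 (adjusted p = 0.0367), and its arrays overlap. Homer1, a scaffold of metabotropic glutamate receptors whose short form is activity-induced, did not pass. Its pairs differed by 0.54, 0.67 and 0.05, so pair 3 was near 0, and its change was 0.42 ± 0.11 (adjusted p = 0.248). The prostaglandin synthase gene Ptgs2 had a change of 0.50 ± 0.17 and novelty arrays all above the cage arrays, without passing (adjusted p = 0.558). Over the list 16 of 20 changes were positive (46.8% of all genes were), with a median of 0.21.

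A list of genes that damp MAP kinase signalling, in which Sik1 was also placed, gave 3 calls among 13: Dusp1, Dusp5 and Sik1. Of all genes 0.11% passed. Dusp1, a nuclear phosphatase of MAP kinases, read 8.40, 7.41 and 7.18 in the cage arrays and 9.57, 8.20 and 8.80 in the novelty arrays. It was the most variable of the 22 (SD 0.65 in cage and 0.69 in novelty arrays, n = 3 each), and cage replicate 3 lay above novelty replicate 2. The pairs differed by 1.17, 0.79 and 1.62 and the change was 1.19 ± 0.22, or 2.28-fold (limma adjusted p = 0.0179). Dusp5, a nuclear phosphatase of ERK, read 7.32, 6.82 and 6.12 against 7.62, 7.37 and 7.32. Its lowest novelty array and its highest cage array were nearly equal, and its difference in pair 3 was 1.20 against 0.30 in pair 1. The change was 0.68 ± 0.13 (adjusted p = 0.0256). Sik1, a kinase that restrains the CREB coactivators Crtc, read 7.36, 6.88 and 6.86 against 8.15, 7.73 and 7.54 and rose by 0.77 ± 0.13 (adjusted p = 0.00697), with pairs of 0.79, 0.85 and 0.68. Of the remaining members, Errfi1 (0.47 ± 0.12), Dusp4 (0.41 ± 0.11) and Dusp6 (0.46 ± 0.13) were positive in every pair and did not pass. The list's median change was 0.29, and 1 member was lower at an unadjusted p under 0.05.

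Gadd45b, a growth arrest gene linked to DNA demethylation in neurons, was the member called among 13 genes of growth arrest and mRNA decay (0.11% of all genes passed). It read 7.52, 7.05 and 7.84 in the cage arrays and 8.13, 8.15 and 8.66 in the novelty arrays, with no overlap. Its change was 0.84 ± 0.14, or 1.79-fold (limma adjusted p = 0.00909). Gadd45g had a change of 0.55 ± 0.18 (adjusted p = 0.554), and the antiproliferative gene Btg2 of 0.43 ± 0.11 with no overlap (adjusted p = 0.196). The list's median was 0.18.

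Of 21 genes for secreted factors, Alkal2 alone passed (0.11% of all genes did), and 6 were higher in all 3 pairs (10.5% of all genes were). Alkal2, a ligand of the receptor kinase ALK, read 5.21, 5.46 and 5.63 against 6.05, 6.03 and 6.41, and its change was 0.73 ± 0.12 (limma adjusted p = 0.0089). Its lowest array was cage replicate 3, and its highest was novelty replicate 3. Ccn1, a matricellular protein, did not pass at 0.83 ± 0.18 (adjusted p = 0.0883), with pairs of 0.97, 0.78 and 0.72 and overlapping arrays. Inhba, a subunit of activin, had a change of 0.67 ± 0.14 (adjusted p = 0.0883) with no overlap between groups. The synaptic pentraxin gene Nptx2 had a change of 0.45 ± 0.11 (adjusted p = 0.181). The median of the list was 0.08, and 14 of 21 changes were positive (46.8% of all genes were).

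Together the 8 lists of activity-regulated genes held 101 measured genes, of which 15 passed (14.9%, against 0.11% of all genes) and 80 were positive (against 46.8% of all genes). The lists and their members were chosen with earlier results of these data known. Their shares therefore describe the lists and are not a test of enrichment. The median change of the 101 genes was 0.19, and 0.15 among those that did not pass. At an unadjusted p under 0.05, 47 were higher and 1 was lower, against 3.39% and 3.81% of all genes. The 8 genes of the CREB family and its coactivators gave 0 calls (0.11% of all genes passed). Crebbp, the gene disrupted in the other genotype of the series, read 9.37, 9.55 and 9.06 against 9.70, 9.40 and 8.81, a change of -0.03 ± 0.12 (adjusted p = 0.976). Its relative Ep300 had a change of 0.17 ± 0.11, and Creb1 of 0.17 ± 0.09 with no overlap, neither of which passed. The smallest p values of this list were those of Crtc2 (0.27 ± 0.10, limma adjusted p = 0.59) and Crem (0.29 ± 0.11, adjusted p = 0.616). Crtc2 was higher in every pair, and Crem had a difference of -0.03 in pair 2.

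**Figure D3:**
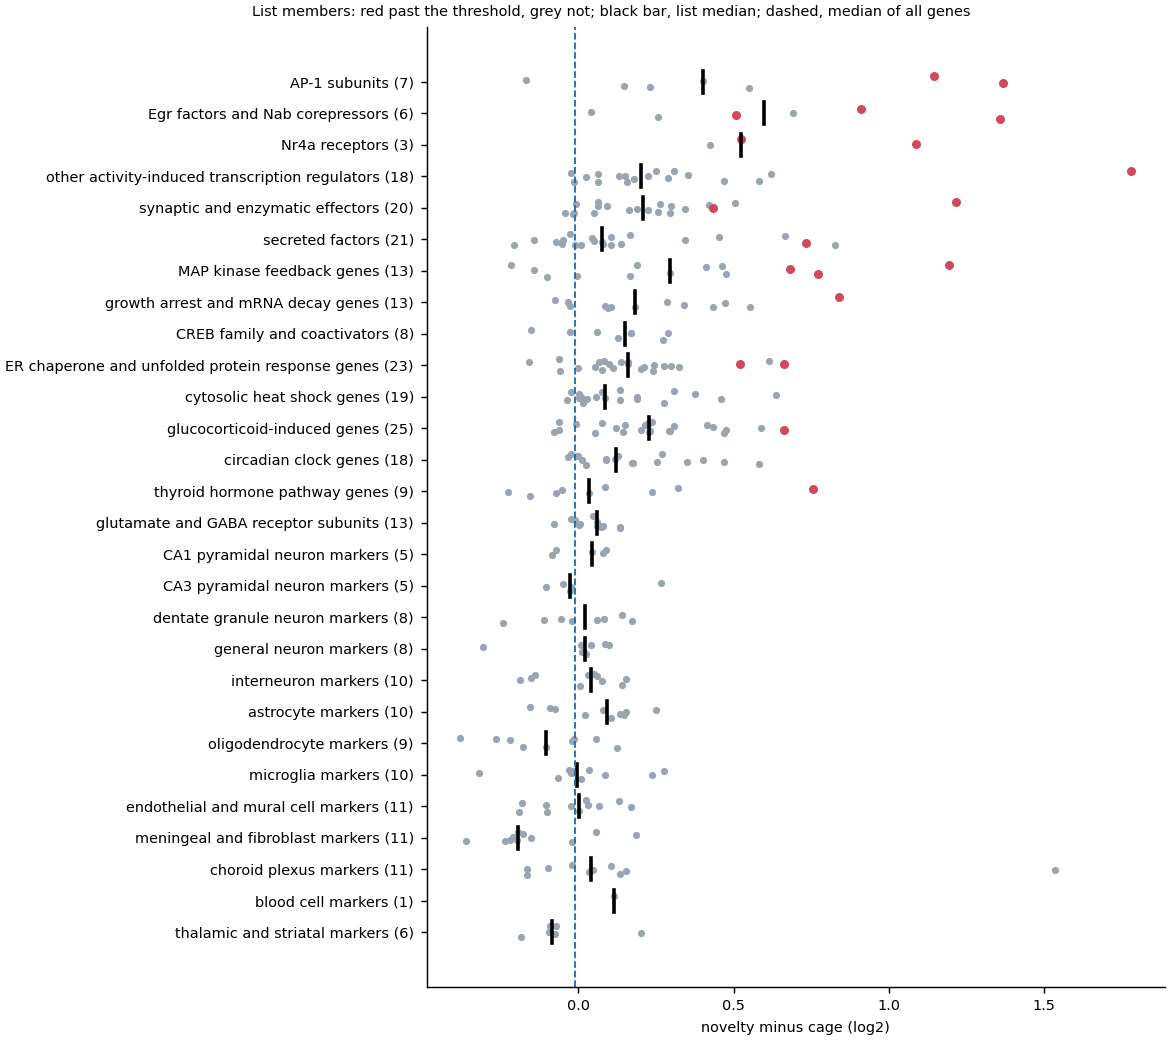
Change of each measured member (points, x axis in log2 units) of 28 gene lists, with the number measured in brackets. Red points passed the threshold, black bars are list medians and the dashed line is the median of all genes (-0.0096). Egr factors (median 0.60) and Nr4a receptors (0.52) stand farthest right, and the lists of cell type markers hold no red point (0.11% of all genes passed).

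Protein folding genes of the endoplasmic reticulum gave 2 calls among 23 (0.11% of all genes passed). Hspa5, the abundant lumenal chaperone BiP, read 9.66, 9.68 and 9.58 in the cage arrays and 10.15, 10.26 and 10.08 in the novelty arrays. Both groups were tight (SD 0.053 and 0.091, n = 3 each), the pairs differed by 0.48, 0.58 and 0.50, and the change was 0.52 ± 0.10, or 1.44-fold (limma adjusted p = 0.0288). Sdf2l1, a partner of that chaperone's cycle, read 6.90, 6.45 and 6.60 against 7.12, 7.48 and 7.34. Its pairs were uneven (0.22, 1.03 and 0.74), and the change was 0.66 ± 0.12 (adjusted p = 0.0256). Xbp1, a transcription factor of the unfolded protein response, had a change of 0.61 ± 0.17 that rested mainly on pair 3 (1.30, against 0.41 and 0.13) and did not pass (adjusted p = 0.388). The list had 19 positive changes of 23 (46.8% of all genes were positive) and a median of 0.16. Manf (0.32 ± 0.09), Pdia4 (0.30 ± 0.11) and Creld2 (0.24 ± 0.09) were positive in every pair and did not pass. Among 19 cytosolic heat shock genes 0 passed (0.11% of all genes did), 17 were positive (46.8% of all genes were) and the median was 0.09. The largest of them was Dnajb1 (0.64 ± 0.15, adjusted p = 0.195), with novelty arrays all above the cage arrays. Dnajb5, the heat shock co-chaperone gene that passed, was counted with the synaptic and enzymatic effectors and not among these 19.

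Handling and a new place also raise stress hormones, and a list of 25 glucocorticoid-induced genes was examined for that reason. Pdk4, a kinase that shuts pyruvate dehydrogenase, was its member past the threshold, with 6.19, 5.81 and 5.98 in the cage arrays and 6.92, 6.52 and 6.54 in the novelty arrays. Its change was 0.66 ± 0.12, or 1.58-fold (limma adjusted p = 0.0127). Of the list's 25 members 1 passed (0.11% of all genes did), 21 were positive (46.8%) and 18 were higher in all 3 pairs (10.5%). The list's median was 0.23. Its median was 0.30 in pair 1, 0.05 in pair 2 and 0.24 in pair 3. Gjb6, an astrocyte connexin, showed the same order, with 0.70, 0.05 and 0.55 and a change of 0.43 ± 0.11 that did not pass (adjusted p = 0.206). Of 18 circadian clock genes 0 passed (0.11% of all genes did), and the median was 0.12. Per1, which glucocorticoids and CREB both induce, had a change of 0.47 ± 0.14 (adjusted p = 0.441), with 0.76 in pair 1, and Per2 of 0.35 ± 0.11 (adjusted p = 0.479).

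Dio2, the deiodinase that turns thyroxine into active thyroid hormone, read 7.80, 7.33 and 7.36 in the cage arrays and 8.65, 8.003 and 8.10 in the novelty arrays. Its pairs were even (0.86, 0.67 and 0.74), and its change was 0.75 ± 0.11, or 1.69-fold (limma adjusted p = 0.00112). It was the member called among 9 genes of the thyroid hormone pathway (0.11% of all genes passed), whose median was 0.04. Dio3, which inactivates the hormone, had a change of -0.23 ± 0.16, and the transporter gene Slco1c1 of 0.32 ± 0.12, neither past the threshold. Subunits of glutamate and GABA receptors gave 0 calls among 13 (0.11% of all genes passed), with changes from -0.08 to 0.14.

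The remaining 3 genes past the threshold belonged to no list. Tiparp, a mono-ADP-ribosyltransferase known as a target of the aryl hydrocarbon receptor, read 7.18, 6.90 and 7.44 against 7.89, 7.49 and 7.69 and rose by 0.52 ± 0.10 (limma adjusted p = 0.0256). Map3k19, a kinase of the MAP3K family, read 5.86, 5.69 and 5.63 against 6.36, 6.08 and 6.37 and rose by 0.55 ± 0.10 (adjusted p = 0.0256). Noxred1, named for an oxidoreductase domain, read 4.86, 4.82 and 5.36 against 5.76, 5.39 and 6.04 and rose by 0.72 ± 0.15 (adjusted p = 0.0497). The levels of Noxred1 lay below the lowest array median in 4 of the 6 arrays. In all 3 genes the novelty arrays stood above the cage arrays.

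No gene was lower at the threshold by limma, while 760 (3.81%) were lower at an unadjusted p under 0.05 and 675 (3.39%) were higher. The 8 negative changes with the smallest p had adjusted p from 0.105 to 0.22. Cilp2, a cartilage matrix protein, had 5.53, 5.50 and 5.63 in the cage arrays and 4.79, 5.39 and 4.98 in the novelty arrays, a change of -0.50 ± 0.11. En1, a homeobox gene of the midbrain and hindbrain, had a change of -0.44 ± 0.10, and Cdc25b, a cell cycle phosphatase, of -0.41 ± 0.10, both with no overlap. The others were Nuak2 (-0.35 ± 0.08), the small nucleolar RNA Snord104 (-0.46 ± 0.11), Sntg2 (-0.39 ± 0.09), the amino acid transporter gene Slc7a7 (-0.31 ± 0.08) and Phldb1 (-0.35 ± 0.09). Negative shifts with separate arrays were more common than positive ones over all genes, 825 (4.14%) against 361 (1.81%), as were negative differences in all 3 pairs, 2711 (13.6%) against 2096.

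Markers of 13 cell types and neighbouring tissues held 0 genes past the threshold. Since 0.11% of all genes passed, 0 calls in lists of this size says little about the markers. The list medians of neurons of CA1, CA3 and the dentate gyrus were 0.04, -0.03 and 0.02, and that of astrocytes was 0.09. Meningeal and fibroblast markers had the lowest median, -0.19, with 4 of 11 lower at an unadjusted p under 0.05. Their average level was 6.13 to 6.25 in the cage arrays and 5.96 to 6.18 in the novelty arrays. The list's median was -0.003 in pair 1, -0.20 in pair 2 and -0.17 in pair 3. Col1a1 had a change of -0.36 ± 0.11 (limma adjusted p = 0.413). Oligodendrocyte markers had a median of -0.10, with -0.07, -0.44 and 0.20 in the 3 pairs, so the sign differed between pairs. Choroid plexus markers averaged 4.85 to 4.93 in the cage arrays and 4.82 to 5.37 in the novelty arrays. The thyroid hormone carrier Ttr, a defining transcript of that tissue, read 7.48, 6.96 and 6.84 against 10.91, 7.32 and 7.65, a change of 1.54 ± 1.07 (adjusted p = 0.782) that rested on novelty replicate 1. The part of these tissues in the 22 changes was not tested.

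**Figure D4:**
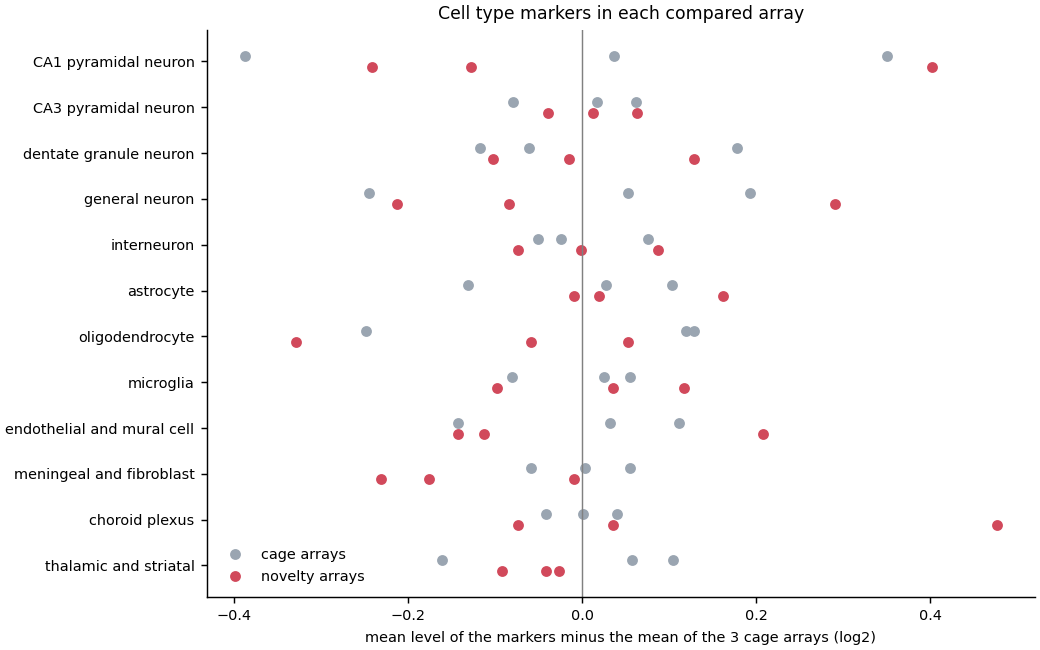
Mean log2 level of the markers of each cell type (blood cells, with 1 measured marker, are not drawn) in the 3 cage arrays (grey) and the 3 novelty arrays (red) of wild-type mice given vehicle, minus the mean of the cage arrays. Choroid plexus markers stand high in 1 novelty array, and meningeal markers, at 5.96 to 6.18, lie to the left of 0 in the 3 novelty arrays. In pair 1 the meningeal markers averaged 6.13 in the cage array and 6.18 in the novelty array.

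Cage replicate 3 was the highest of the cage arrays in 16 of the 22 genes (72.7%, against 36.4% of all genes). Novelty replicate 1, of the same set, was the highest novelty array in 15 of the 22 (68.2%, against 31.1%). Pair 1 also gave the smallest of the 3 differences in 11 of the 22 (50%, against 33.8%). With no array-set block, 2 of the 22 passed, Npas4 and Fos. Without cage replicate 3, 4 or 5, the test was passed by 10, 9 and 14 of the 22, among 10, 10 and 15 of all genes (1 of these lower, without replicate 4). Without novelty replicate 1, 2 or 3 it was passed by 14, 12 and 9 of the 22, among 16, 12 and 10. Without set 1 it was passed by 9 of the 22 among 9 genes, and without set 3 by 12 among 13. The fewest passed without set 2, 5 of the 22 (Npas4, Arc, Egr2, Dio2 and Alkal2), among 14 genes of which 5 were lower. Npas4, Arc and Egr2 passed in all 9 of these fits. Nr4a1, Fosb, Fos and Egr1 passed in 8, failing without set 2, and Dio2 passed in 8, failing without set 3. Map3k19, Hspa5 and Egr3 passed in 0 of the 9, with changes of 0.45 to 0.62, 0.49 to 0.55 and 0.44 to 0.62. All 22 kept a positive change in each of the 9 fits, which reuse the arrays by which the 22 were chosen. The other 11 genes passed in 1 to 5. Without the 3 arrays with raised choroid plexus markers, none of which is compared here, 14 of the 22 passed and no other gene did.

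The same 22 genes were followed in the other 3 comparisons of novelty with cage, which use other arrays: cbp+/- with vehicle, wild type with TSA and cbp+/- with TSA. All 22 had a positive change in each of the 3, where 49.3%, 55.7% and 49.9% of all genes did. In cbp+/- with vehicle 10 of the 22 passed, among 15 of all genes (0.0752%), in wild type with TSA 10 of the 22 among 17 (0.0853%; 0.0802% higher and 0.00502% lower), and in cbp+/- with TSA 8 of the 22 among 10 (0.0502%). The median change of the 22 was 0.74 here, where they were chosen, and 0.57, 0.56 and 0.43 in the other comparisons. Genes past the threshold in all 4 were Npas4, Arc, Egr2, Nr4a1, Fosb, Dio2, Fos and Egr1. Fos changed by 1.37 ± 0.20 here and by 1.26, 1.38 and 1.36 in the others in that order. Egr2 changed by 1.36 ± 0.16, 1.73, 1.41 and 1.10. Dio2 changed by 0.75 ± 0.11, 0.59, 0.80 and 0.69. In 11 genes this was the only one of the 4 comparisons with a call: Sik1, Alkal2, Pdk4, Tiparp, Sdf2l1, Map3k19, Dusp5, Hspa5, Dnajb5, Noxred1 and Egr3.

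**Figure D5:**
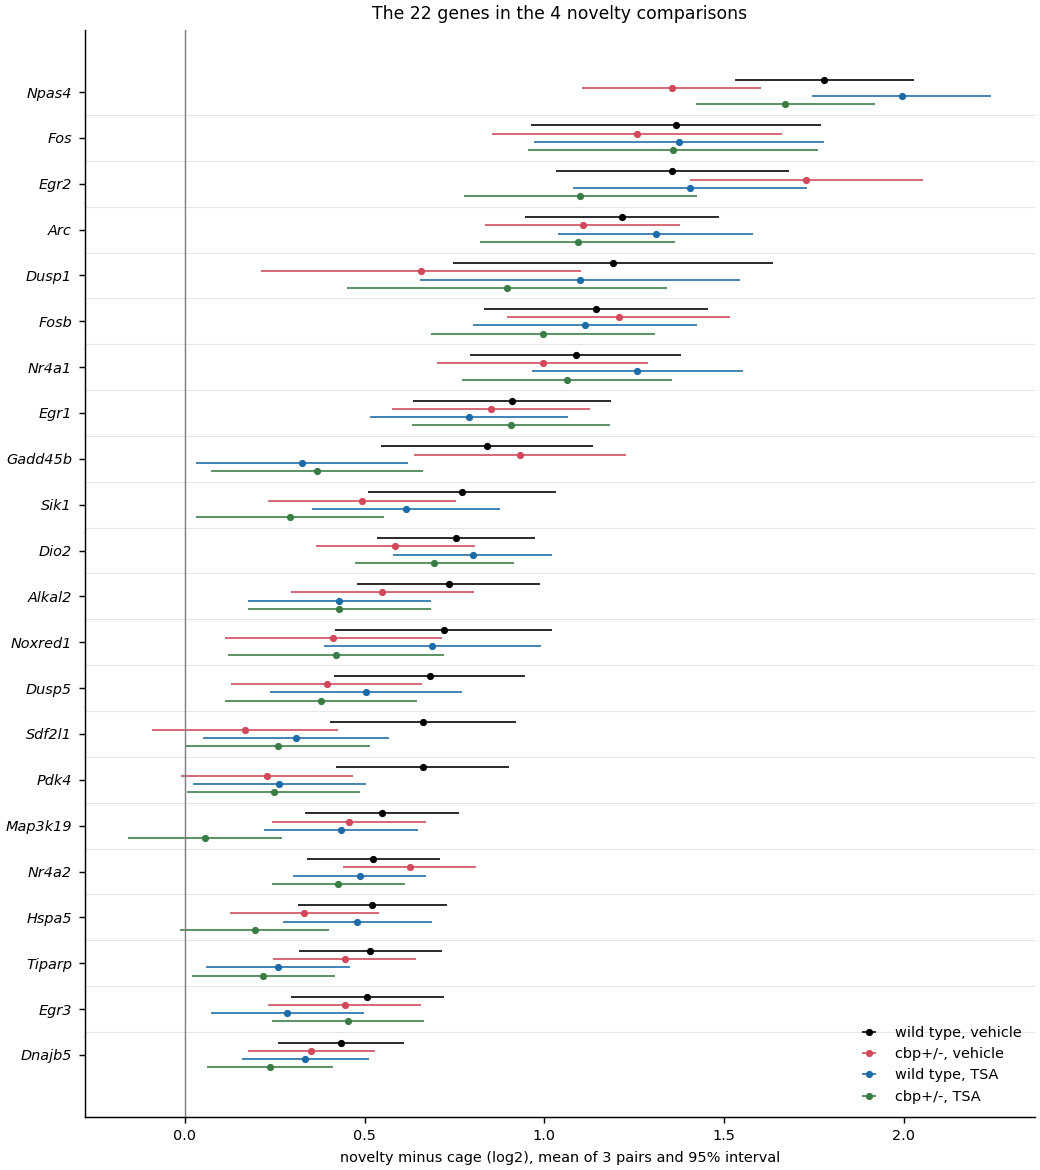
Change with novelty (x axis, log2, mean of 3 pairs with its 95% interval) of the 22 genes in wild type with vehicle (black), cbp+/- with vehicle (red), wild type with TSA (blue) and cbp+/- with TSA (green). All points lie to the right of 0, and the intervals of the 4 comparisons overlap for most genes.

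That contrast in calls does not show a difference between the comparisons, so the differences were tested in the same fit. For novelty by genotype with vehicle, limma gave 0 genes past the threshold, with 1417 (7.11%) at an unadjusted p under 0.05 and a lowest adjusted p of 0.681. For novelty by TSA in wild type it gave 0, with 696 (3.49%) at an unadjusted p under 0.05. Both tests share the wild-type vehicle arrays. The 95% interval of the difference held 0 for 19 of the 22 genes by genotype and for 20 by TSA. For Npas4 the change in cbp+/- minus that in wild-type mice was -0.42 (95% interval -0.78 to -0.07, limma adjusted p = 0.686), which did not pass. Sdf2l1 differed by -0.50 (-0.86 to -0.13) and Pdk4 by -0.43 (-0.77 to -0.09), both with an adjusted p of 0.686. By TSA, Gadd45b differed by -0.51 (-0.93 to -0.10) and Pdk4 by -0.40 (-0.74 to -0.06), both with an adjusted p of 1. For Fos the difference by genotype was -0.11, with an interval of -0.68 to 0.46.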

How the data were processed

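Hippocampal RNA was hybridised to Affymetrix Mouse Gene 1.0 ST arrays, which carry probes along each transcript. The values are log2 expression values deposited by the authors, 1 per transcript cluster and array, made in GeneSpring GX 11 (per the labels' protocols) by RMA, which corrects background, normalizes and summarizes probes (per the submitters' processing notes). For RMA's version and the build, nothing is given in the sources used here. Since RMA equalises the distributions of arrays, it hides any shift common to most transcripts. The labels call the pools independent biological replicates. The series design gives 3 to 4 mice per pool and the extraction protocol gives 4.

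Of 35556 clusters, 21789 had 1 gene symbol in the platform's table, 1621 had several and 12146 had no entry. For 999 genes with several clusters, that with the highest mean over the 24 arrays was kept, leaving 19938 genes. The other 13767 clusters were tested separately (0 past the threshold, 811 at an unadjusted p under 0.05). Differences were fitted with limma 3.58.1 in R 4.3.3 on the 24 arrays of 8 groups of 3, with array set as a block, empirical Bayes variances, two-sided tests and Benjamini-Hochberg adjustment within each comparison. The number of arrays limits the precision (residual degrees of freedom 14, median standard error of a change 0.10).

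The sets were found in the data and no label names them. Deviations from group means correlated at 0.56, 0.47 and 0.68 within the 3 pairs and at -0.48 to -0.01 otherwise. Over the 24 arrays, 84 pairs within a set correlated at 0.42 to 0.81 and 168 pairs of different sets at -0.63 to -0.01. Since the sets were found in these values, the correlations describe the sets and do not test them. The deviations of a group cancel out by construction, which pulls the correlations between sets down. In a simulation of this comparison with known changes in 200 of 19938 genes, the fit recovered 69% of changes of 0.5 and 100% of changes of 1, with 12 unchanged genes called. In the data 22 genes passed. With more genes changed, the adjusted threshold is easier to reach, so the share recovered at 0.5 can be lower in the data.

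The text names every gene past the threshold, the 8 falls with the smallest p, and some further members of 28 lists (315 genes measured). These members were taken from up to 4 per list with the smallest p beyond those called, and not all of them are named. Crebbp and Ttr were named for what they are and not for their p. The members and lists were chosen with earlier results of these data known. Alternatives were fits with no block or with the title numbers as a block, fewer or all arrays, array weights, an intensity trend, repeated quantile normalization, no dim genes, averaged clusters and each array or set left out. Fits without 3 arrays rich in choroid plexus markers, and with the naive arrays, were added after seeing the data.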

Additional observations from a re-analysis of the deposited data

How the results depend on the processing

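The count of 22 genes stayed between 15 and 25 with the 6 compared arrays alone (16), the 12 wild-type arrays (15), all 28 arrays (22), array weights (19), an intensity trend (23), repeated quantile normalization (19), no dim genes (25) and averaged clusters (22). It was 2 with no replicate block, 9 to 16 with an array or set left out (5 to 14 of the 22), 14 without the arrays rich in choroid plexus markers, and 7 with the naive arrays added and no block (the last pair chosen after seeing the data). The fit with no dim genes left out Alkal2, Map3k19 and Noxred1 and held 19 of the 22, all of which passed among its 25. Of the 22 genes themselves, 14 passed with the 6 compared arrays alone, and the same 14 with the 12 wild-type arrays. Nr4a2, Tiparp, Sdf2l1, Map3k19, Dusp5, Hspa5, Dnajb5 and Egr3 passed in neither of these fits. With 1 set left out, limma called 5 genes lower (set 2), and with cage replicate 4 left out, 1. The interaction by genotype gave 0 to 1 genes when arrays or sets were left out. The title numbers as a replicate block pair the cage arrays with arrays of other sets, sharing only number 3, so its changes carry set differences: it called 4308 genes (1873 higher, 2435 lower, with 10 of the 22), and 2983 for the interaction by TSA. Under that block alone the sign turned for Nr4a2 (-0.072), Dusp5 (-0.040), Dnajb5 (-0.21), Egr3 (-0.17), Fosl2 (-0.44), Spry4 (-0.59), Per2 (-0.41), Slc1a3 (-0.71), Klf9 (-0.45), Dcn (0.44), Gad2 (-0.48), Ep300 (-0.48), Camk2a (-0.47), Mpped1 (-0.49) and Pou3f1 (-0.70). Over all alternatives, the 22 genes kept their call in 276 fits of a gene, lost it in 179 and turned sign in 4. The cause of the lost calls was not tested. The fits that leave arrays out also hold fewer arrays, and the part of that was not tested either. The sets were found in the values that were then tested, and the count rests on them.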
